A study of Mus musculus with 847 samples.

Results

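Trem2, Tyrobp, Syk, Plcg2 and Inpp5d, the genes of a microglial receptor and the enzymes that act directly beneath it, were followed through the ageing mouse brain. The 5 genes were taken by name from a table of 21076 genes, and all 5 passed the filter on low counts in every region. The table holds read counts of 847 RNA sequencing libraries, each from 1 of 15 dissected brain regions of 59 C57BL/6JN mice, with 1 library per region and mouse. The animals carried no labelled transgene, deletion or treatment, and age, sex and region were what differed. Females were represented by 5 animals each at 3, 12, 15, 18 and 21 months. Males were represented by 5 animals at 3, 12, 15, 18 and 26 months, 6 at 21 months and 3 at 28 months. The oldest ages are therefore male, which matters wherever the sexes differ.

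Trem2 is a surface receptor of microglia, the resident macrophages of the brain, that binds lipids, apolipoproteins and cell debris. It has no signalling tail of its own and sits with Tyrobp (also called DAP12), an adaptor whose cytoplasmic motif is phosphorylated by Src family kinases. The phosphorylated adaptor recruits the tyrosine kinase Syk, which leads to the activation of the phospholipase Plcg2 and of phosphoinositide 3-kinase. Inpp5d (SHIP1) is a lipid phosphatase that removes a phosphate from the lipid this kinase makes, and so restrains the pathway. Variants of several of these genes are known risk factors for Alzheimer's disease in people.

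In the GRCm38 assembly, all 5 genes lie on the plus strand. Trem2 (ENSMUSG00000023992.14) lies at chr17:48346401-48354147, Tyrobp (ENSMUSG00000030579.10) at chr7:30413760-30417585, and Syk (ENSMUSG00000021457.14) at chr13:52583173-52648792. Plcg2 (ENSMUSG00000034330.10) lies at chr8:117498291-117635142 and Inpp5d (ENSMUSG00000026288.14) at chr1:87620312-87720507. The libraries were unstranded. In the GENCODE annotation used here, no exon of another gene shares a base with an exon of these 5. The annotation behind the deposited counts is not given, so overlaps in it could not be checked. The promoters of Trem2 and Inpp5d are printed because these genes, a receptor and the phosphatase that opposes its signal, had unequal slopes with age. Both are the 250 bases before the annotated start, read 5′ to 3′ on the plus strand from the RefSeq table of GRCm38.p6, which held promoters of 4 of the 5 genes (Tyrobp not among them). Capitals mark the letters AGGAAGT, the kind of motif bound by PU.1, the myeloid factor encoded by Spi1.

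Trem2, chr17:48346151-48346400: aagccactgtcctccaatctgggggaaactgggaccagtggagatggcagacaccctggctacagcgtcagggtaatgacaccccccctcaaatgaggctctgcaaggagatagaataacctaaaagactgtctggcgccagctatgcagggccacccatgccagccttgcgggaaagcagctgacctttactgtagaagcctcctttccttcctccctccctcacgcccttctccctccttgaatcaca

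Inpp5d, chr1:87620062-87620311: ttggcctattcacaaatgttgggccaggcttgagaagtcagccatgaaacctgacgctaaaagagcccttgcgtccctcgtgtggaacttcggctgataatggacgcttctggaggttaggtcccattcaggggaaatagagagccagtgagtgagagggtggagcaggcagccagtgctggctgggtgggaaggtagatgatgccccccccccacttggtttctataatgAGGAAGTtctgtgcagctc

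The Inpp5d window holds AGGAAGT starting 19 bases before the start, and the Trem2 window holds it on neither strand. AGGAAGT or its reverse complement ACTTCCT occurs in 7.69% of the 32851 windows of this length in the table. The shorter core GGAA or TTCC, which every AGGAAGT contains, occurs in 93.45% of them and in both windows shown. GC content is 56% in the Trem2 window and 54.4% in the Inpp5d window. These matches describe letters and not binding.

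Depth varied widely between libraries, from 481444 to 26756735 reads around a median of 6716032, and 10 libraries fell short of 1000000 reads. Each region had between 51 and 59 libraries, and 37 mice had all 15 regions. A total of 16 libraries had a profile closer to the mean of another region than to their own, 8 of them libraries of the posterior hippocampus that were closest to the anterior hippocampus. Of the 16, the entorhinal cortex of a 21-month female (mouse 52), correlated with the medulla at r = 0.923 and with its own region at 0.677. Markers of choroid plexus epithelium summed to between 1895 and 6833 reads per 1000000 reads (CPM) in choroid plexus at 3 months. They reached 15362 CPM in corpus callosum, 9071 in subventricular zone and 3037 in caudate putamen, so some libraries of these regions held choroid plexus RNA, whose part in the results was not tested. The highest of these sums were thus not those of libraries labelled choroid plexus. How much other tissue those libraries held was not measured. The choroid plexus library of a 12-month male (mouse 3) correlated with entorhinal cortex at r = 0.949 and with its own region at 0.922. All 14 genes of a homeostatic microglia list were detected in every region at 3 and at 28 months.

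The 5 genes were read at unequal depth, which sets how firmly each can be described. Tyrobp had a median of 118 reads per library (range 6 to 1253) and Trem2 had 71 (2 to 726). Inpp5d had a median of 45 reads (0 to 253), Plcg2 had 24 (0 to 315), and Syk had 12 (0 to 73). Syk was at 0 in 16 libraries and under 10 reads in 322 of the 847. A count of 0 in those 16 libraries allows up to between 0.562 and 6.23 CPM, taking 3 reads as the limit for counting error alone.

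At 3 months the pathway was present in every region, and caudate putamen and corpus callosum had the highest and cerebellum the lowest receptor levels. Trem2 measured 13.1 ± 1.03 CPM in caudate putamen (SD, n = 9), with libraries from 11.9 to 14.6 and a median of 12.7. In cerebellum its 10 libraries ran from 2.62 to 4.84 CPM with a median of 3.76, so that the groups did not overlap. Tyrobp ran from 15.8 through a median of 17.3 to 21.9 CPM in caudate putamen, and from 4.96 through 7.45 to 11.8 CPM in cerebellum. Inpp5d had the same regions at the ends of its order, with a mean of 9.07 CPM in caudate putamen and 2.54 CPM in cerebellum. The adaptor, the receptor and the phosphatase thus shared both ends of their regional order.

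**Figure D1:**
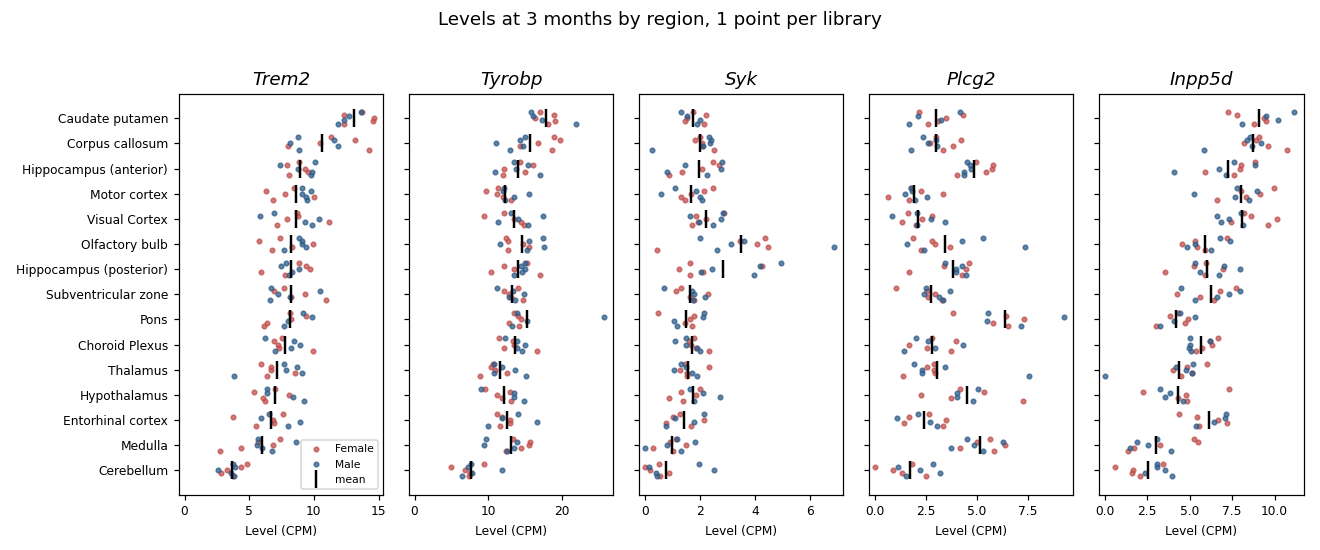
Levels of the 5 genes at 3 months in CPM (horizontal axis) by region (vertical axis, ordered by the mean of Trem2). Each point is 1 library, coloured by sex, the bar is the mean of the region, and cerebellum has the lowest mean for every gene, down to 0.765 CPM for Syk.

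Plcg2 and Syk were ordered differently. Plcg2 was highest in pons, at a mean of 6.39 CPM, followed by medulla at 5.18 CPM, the region where Trem2 and Inpp5d were second lowest. Its pons libraries ran from 3.85 through a median of 6.45 to 9.27 CPM. Syk was highest in olfactory bulb, at a mean of 3.51 CPM, where its libraries spread from 0.452 through a median of 3.54 to 6.87 CPM. In cerebellum Plcg2 averaged 1.75 CPM and Syk 0.765 CPM.

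Regional differences in level were common among all genes. In the joint fit of the 3-month libraries (edgeR quasi-likelihood test, Benjamini-Hochberg adjustment), 33.0% of all gene and region pairs lay above the mean of the other 14 regions and 32.2% below it. Trem2 lay above in 5 regions and below in 4, Tyrobp above in 3 and below in 3, and Inpp5d above in 5 and below in 5. Plcg2 lay above in 4 and below in 5, and Syk above in 3 and below in 2. The largest differences were those of cerebellum, at -1.21 (SE 0.0942) on the log2 scale for Trem2 and -1.17 (SE 0.12) for Inpp5d, and of pons for Plcg2, at 1.14 (SE 0.12). Left out in turn, the 3-month mice took the number of regions in which Trem2 differed from 9 to as few as 5.

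Between neighbours in the order, few differences in level passed a test within mouse. Of 14 neighbouring pairs per gene, tested within mouse by an exact sign-flip permutation test (2-sided), only the step of Tyrobp from thalamus (11.6 CPM) to cerebellum (7.72 CPM) passed, with adjusted p = 0.0273. No neighbouring pair passed for the other 4 genes, while at an unadjusted p under 0.05 there were 2 pairs for Trem2, 1 for Inpp5d and none for Plcg2 or Syk. The step of Trem2 from medulla (5.95 CPM) to cerebellum (3.67 CPM) had adjusted p = 0.082. An exact test on so few mice has a lowest possible p, which the adjustment over 14 pairs brings near or past the threshold. Pairs that did not pass are therefore not shown to be alike.

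Set per length of transcript, the adaptor was the most abundant of the 5 and the kinase the least. Over the regional means at 3 months, the median level was 24.1 CPM per kilobase of the principal transcript for Tyrobp and 7.56 for Trem2. It was 1.22 for Inpp5d, 0.697 for Plcg2 and 0.322 for Syk. Trem2 has long alternative exons, and per kilobase of all its merged exons its median was 1.66, still above the 0.793 of Inpp5d on that scale. These are levels in whole tissue, where fewer cells of a type and less RNA per cell cannot be told apart.

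With age, the receptor and its adaptor rose in most regions, the phospholipase in many, the phosphatase in a few, and the kinase in 1, while none of the 5 was called as falling in any region. The slope was fitted in each region on age in months beside sex, and called at an adjusted p under 0.05 over all genes tested in that region. Trem2 rose in 12 of 15 regions, Tyrobp in 13, Plcg2 in 10, Inpp5d in 5 and Syk in 1. No gene fell at an unadjusted p under 0.05 or by DESeq2, which called Syk in no region and Inpp5d in 6. Over the regions, 5.87% of gene and region pairs rose and 4.71% fell. Among the 12920 genes tested in all 15 regions, 0.681% rose in 12 or more, 0.348% in 13 or more, 1.49% in 10 or more, 5.74% in 5 or more and 29.9% in at least 1. The counts of Trem2 and Tyrobp are therefore rare among genes, and those of Inpp5d and Syk are less so.

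By region, 4 of the 5 genes rose in cerebellum, choroid plexus, corpus callosum, posterior hippocampus and medulla. The shares of all tested genes that rose there were 9.45%, 11.1%, 9.06%, 4.0% and 6.33%. In caudate putamen, hypothalamus, pons, subventricular zone and thalamus 3 of the 5 rose, against 7.32%, 3.88%, 3.94%, 4.5% and 2.32% of all genes. In anterior hippocampus, motor cortex and olfactory bulb 2 rose, against 5.76%, 8.0% and 7.31%. None rose in visual cortex, where 5.13% of all genes did, or in entorhinal cortex, where only 0.0758% did. In each of these cortices 2 of the 5 rose at an unadjusted p under 0.05, and DESeq2 called none.

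**Figure D2:**
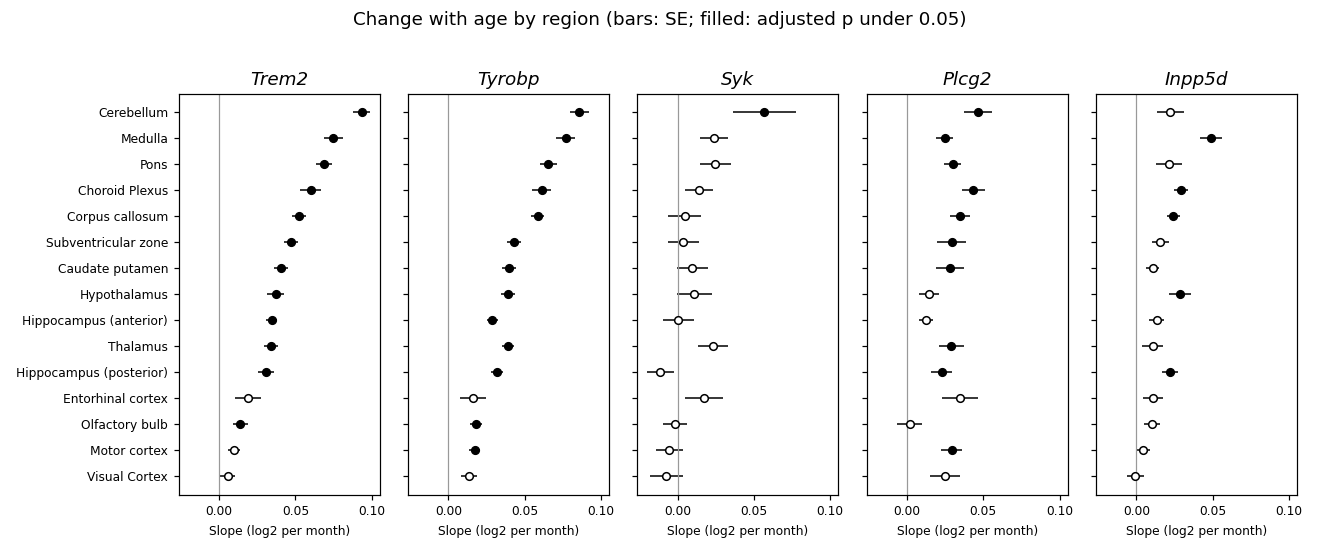
Slope with age of the 5 genes in log2 per month (horizontal axis) by region (vertical axis, ordered by the slope of Trem2), with its SE as the bar and the point filled where the adjusted p was under 0.05. The slopes run from 0.00555 for Trem2 and 0.0135 for Tyrobp in visual cortex to 0.0935 and 0.0859 in cerebellum.

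Trem2 rose most steeply in cerebellum, the region where it started lowest. Its 10 libraries at 3 months ran from 2.62 through a median of 3.76 to 4.84 CPM, and the 3 at 28 months measured 13.5, 18.4 and 19.2 CPM. The groups did not overlap, and the mean at 28 months was 4.64 times that at 3 months. The slope was 0.0935 log2 per month (SE 0.00577, adjusted p = 3.5e-20, edgeR quasi-likelihood test). Medulla had the second steepest slope, 0.0748 (SE 0.00625), ahead of pons with 0.0688 (SE 0.00528). Choroid plexus followed with 0.0599 (SE 0.00693) and corpus callosum with 0.0524 (SE 0.00465). Libraries labelled cerebellum, medulla, pons, choroid plexus and corpus callosum thus led for the receptor. How much choroid plexus tissue the libraries of that label held was not measured.

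In medulla Trem2 ran from 2.75 through a median of 5.84 to 8.58 CPM at 3 months, and the 28-month libraries measured 12.8, 15.9 and 16.2 CPM. In pons it went from 6.17, 8.17 and 9.83 CPM (lowest, median and highest) to 20.1, 25.2 and 25.2 CPM. In corpus callosum it went from 7.99, 10.9 and 14.3 CPM to 22.4, 24.5 and 33.5 CPM. All 3 of these regions had every old library above every young one.

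In the cortical regions the slope of the receptor did not pass the test. In visual cortex Trem2 ran from 5.8 through 8.74 to 11.2 CPM at 3 months and measured 8.03, 9.53 and 9.87 CPM at 28 months, within the range of the young mice. Its slope there was 0.00555 (SE 0.00472, adjusted p = 0.51). In motor cortex the slope was 0.01 (SE 0.00397, adjusted p = 0.07), which passed the threshold without mouse 2, 11 or 44 (adjusted p down to 0.0429), and in entorhinal cortex 0.0187 (SE 0.00851, adjusted p = 0.47). In olfactory bulb the slope of 0.0139 was called with adjusted p = 0.034, and was no longer called without mouse 17, 49 or 53, with adjusted p of up to 0.0874. In the remaining 11 regions the call did not depend on any 1 mouse.

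**Figure D3:**
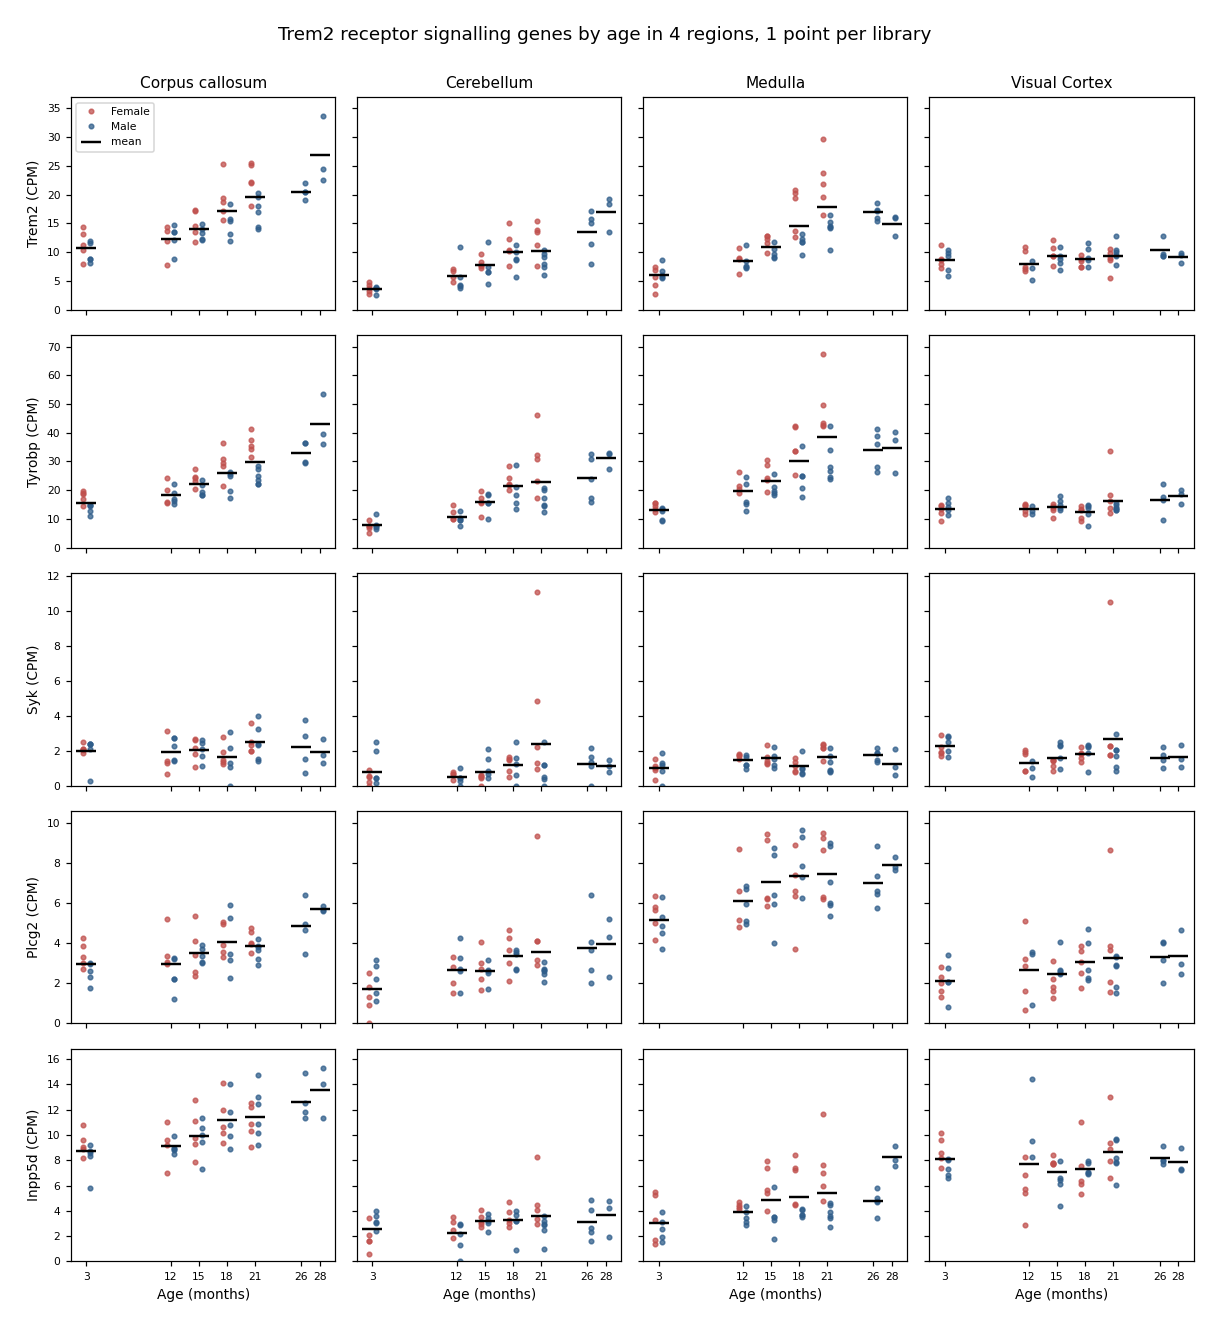
CPM of the 5 genes (rows, each with its own axis from 0) by age in months in corpus callosum, cerebellum, medulla and visual cortex (columns), 1 point per library, coloured by sex, with a bar at the mean of each age. Trem2 in cerebellum climbs from a median of 3.76 CPM at 3 months to 18.4 CPM at 28 months, while in visual cortex it goes from 8.74 to 9.53 CPM.

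Tyrobp, the adaptor, followed the receptor closely. In cerebellum it ran from 4.96 through 7.45 to 11.8 CPM at 3 months and measured 27.4, 32.6 and 33.1 CPM at 28 months, 4.02 times the young mean. In corpus callosum it went from 11, 14.8 and 19.7 CPM to 36, 39.7 and 53.5 CPM. In pons it went from 12.8, 14.1 and 25.7 CPM to 36.2, 46.9 and 47.2 CPM. None of these groups overlapped.

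Cerebellum had the steepest slope of Tyrobp at 0.0859 (SE 0.00654), then medulla at 0.0769 (SE 0.00609) and pons at 0.0655 (SE 0.00543). Choroid plexus followed at 0.0611 (SE 0.00641) and corpus callosum at 0.0584 (SE 0.00414). These are the same 5 regions that led for Trem2, in the same order. In motor cortex, where Trem2 was not called, Tyrobp had a slope of 0.0171 (SE 0.00335, adjusted p = 0.00016). Its libraries there ran from 9.75 through 12.1 to 15.5 CPM at 3 months and measured 14, 14.7 and 14.9 CPM at 28 months, so the groups overlapped in spite of the call. In entorhinal cortex (0.0161, adjusted p = 0.55) and visual cortex (0.0135, adjusted p = 0.1) Tyrobp was not called. None of its 13 calls was lost when any 1 mouse was left out.

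Plcg2, the phospholipase that turns the receptor's signal into calcium release, rose in 10 regions with smaller slopes. The steepest were 0.0467 (SE 0.00931) in cerebellum, 0.0436 (SE 0.00741) in choroid plexus and 0.0348 (SE 0.00652) in corpus callosum. In corpus callosum its libraries ran from 1.77 through 3.01 to 4.25 CPM at 3 months and measured 5.61, 5.66 and 5.85 CPM at 28 months, without overlap. In cerebellum they ran from 0 through 1.67 to 3.2 CPM and measured 2.3, 4.34 and 5.22 CPM, so that 1 old library lay within the young range. In pons, where Plcg2 was highest at 3 months, it went from 3.85, 6.45 and 9.27 CPM to 10.2, 12.1 and 12.7 CPM.

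Plcg2 was also called in motor cortex (0.0293, SE 0.00681), medulla (0.0246, SE 0.00551) and pons (0.03, SE 0.00569). Its calls in caudate putamen, posterior hippocampus, subventricular zone and thalamus had adjusted p between 0.032 and 0.043, and each was lost when single mice were left out, with adjusted p of up to 0.0853. In anterior hippocampus (0.0125, adjusted p = 0.084), hypothalamus (0.0145, 0.2), visual cortex (0.0246, 0.1), olfactory bulb (0.00161, 0.95) and entorhinal cortex (0.0349, 0.26) it was not called. In entorhinal cortex its slope was the same size as in corpus callosum but with a wider error (SE 0.0118).

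Inpp5d, the phosphatase, rose in 5 regions: medulla (0.0491, SE 0.00732), choroid plexus (0.0294, SE 0.00455), hypothalamus (0.0286, SE 0.0072), corpus callosum (0.0243, SE 0.00404) and posterior hippocampus (0.022, SE 0.00508). In medulla its libraries ran from 1.37 through 2.82 to 5.51 CPM at 3 months and measured 7.58, 8 and 9.09 CPM at 28 months, 2.73 times the young mean. The 5 libraries of medulla at 26 months, at 3.4, 4.69, 4.8, 4.98 and 5.84 CPM, lay within the young range but for the highest. In corpus callosum Inpp5d went from 5.83, 8.81 and 10.8 CPM to 11.3, 14 and 15.3 CPM. No call of Inpp5d was lost when 1 mouse was left out.

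In cerebellum, where Trem2 rose most, Inpp5d had a slope of 0.0223 (SE 0.00875, adjusted p = 0.069), with 0.62, 2.72 and 3.95 CPM at 3 months and 1.93, 4.24 and 4.76 CPM at 28 months, and it passed the threshold without any of 5 mice singly. In visual cortex its slope was -0.00058 (SE 0.00537, adjusted p = 0.98). Between these ends lay caudate putamen (0.0106, adjusted p = 0.064), anterior hippocampus (0.0132, adjusted p = 0.059) and subventricular zone (0.0158, adjusted p = 0.066), which passed the threshold when 7, 6 and 3 mice were left out singly.

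Syk, the kinase that the adaptor recruits, was called in cerebellum alone, and that call was weak. Its cerebellar libraries ran from 0 through 0.48 to 2.51 CPM at 3 months and measured 0.761, 1.12 and 1.45 CPM at 28 months, inside the young range. The slope was 0.0566 (SE 0.0207, adjusted p = 0.0489), and leaving out any of 43 mice singly ended the call. The highest cerebellar library came from a 21-month female (mouse 40) with 72 reads of Syk, or 11 CPM, where the second highest had 4.84 CPM and the median was 0.767 CPM. Without that mouse the slope was 0.0366 with adjusted p = 0.15. With library total and genes detected as covariates it was 0.0321 with adjusted p = 0.28. In males alone it was 0.00982 with adjusted p = 0.81, and in females alone, which include mouse 40, it was 0.194 with adjusted p = 0.0042.

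That library also held granulocyte transcripts, and granulocytes express Syk. A list of 10 granulocyte genes, among them S100a8, S100a9 and Ngp, summed to 3027 CPM in it against a cerebellar median of 14.2 CPM. The sum ran from 1.47 to 820 CPM in the cerebellum at 3 months and from 3.62 to 23.9 CPM at 28 months, with none of the 10 genes at 0 in either group. Its levels of Tyrobp (46 CPM), Plcg2 (9.36 CPM) and Inpp5d (8.28 CPM) were also the highest of the cerebellum, and its Trem2 level of 11.2 CPM was not. The cerebellar calls of Tyrobp and Plcg2 held when any 1 mouse was left out. In visual cortex the library with the most granulocyte RNA (mouse 48, a 21-month female, 1781 CPM) likewise had the highest Syk level, at 10.5 CPM against 2.94 CPM for the second highest. The part of granulocyte RNA in the slope of Syk was not tested beyond leaving these mice out.

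**Figure D4:**
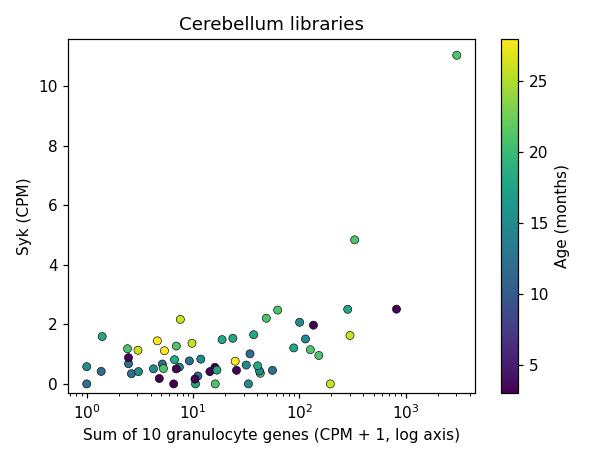
Syk in CPM (vertical axis) against the summed CPM of 10 granulocyte genes plus 1 (horizontal log axis) in the cerebellum, 1 point per library, coloured by age in months. The point at the upper right is the library of mouse 40, with 3027 CPM of granulocyte genes and 11 CPM of Syk.

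In the other 14 regions the slope of Syk did not pass the test. These slopes ran from -0.0115 in posterior hippocampus to 0.0246 in pons, with a median over all 15 of 0.00951. Medulla (0.0239, SE 0.00922, adjusted p = 0.084) passed the threshold without mouse 29 or 59, and thalamus did with the depth covariates (0.0322, adjusted p = 0.034, against 0.0233 and 0.2 without them). The median slope was 0.037 for Trem2, 0.039 for Tyrobp, 0.029 for Plcg2 and 0.0158 for Inpp5d, while the median of all genes lay between -0.0006 and 0.00062 in every region. In no region did every 28-month library of Syk lie above every 3-month library. Trem2 and Tyrobp did so in 12 regions each, and Plcg2 and Inpp5d in 4 each, against 3.87% of all gene and region pairs.

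The ages at which the rise was first called differed between genes, which were read at unequal depth. A later first call does not show a later rise. In caudate putamen at 26 months, for example, Plcg2 differed by 0.88 (SE 0.28) without a call and Trem2 by 0.90 (SE 0.13) with one. No test compared the genes. Each later age was set against 3 months in each region with sex in the model, and all of these comparisons share the 3-month libraries. At 12 months Trem2 was above its 3-month level in 2 regions and Tyrobp in 4, and the other 3 genes in none, against 0.678% of all gene and region pairs. At an unadjusted p under 0.05 the counts were 7 for Trem2, 7 for Tyrobp and none for the other 3, of which DESeq2 also called none. Those regions were cerebellum and subventricular zone for Trem2, and anterior hippocampus, medulla, subventricular zone and thalamus for Tyrobp. At 15 months the counts were 6 and 5 with 0.657% of all pairs, and the other 3 genes were called by neither edgeR nor DESeq2. At an unadjusted p under 0.05 Plcg2 was higher in 5 regions, Inpp5d in 4 and Syk in 2.

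At 18 months, with 1.54% of all pairs above 3 months, Trem2 was called in 11 regions, Tyrobp in 12, Plcg2 in 4 and Inpp5d in 2. At 21 months, with 3.53%, the counts were 12, 13, 5 and 5, and Syk was called in medulla (0.65, SE 0.21, adjusted p = 0.044). At 26 months, with 2.38%, Trem2 was called in 10, Tyrobp in 12, Plcg2 in 4 and Inpp5d in 4. At 28 months, with 3.3%, they were called in 11, 11, 5 and 4. No gene of the 5 was called below its 3-month level at any age by edgeR or DESeq2, and at an unadjusted p under 0.05 there were 2 such pairs at 12 months and 1 at 15 months. The counts at 26 and 28 months rest on 5 and 3 males, so a lower count there does not show a fall.

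**Figure D5:**
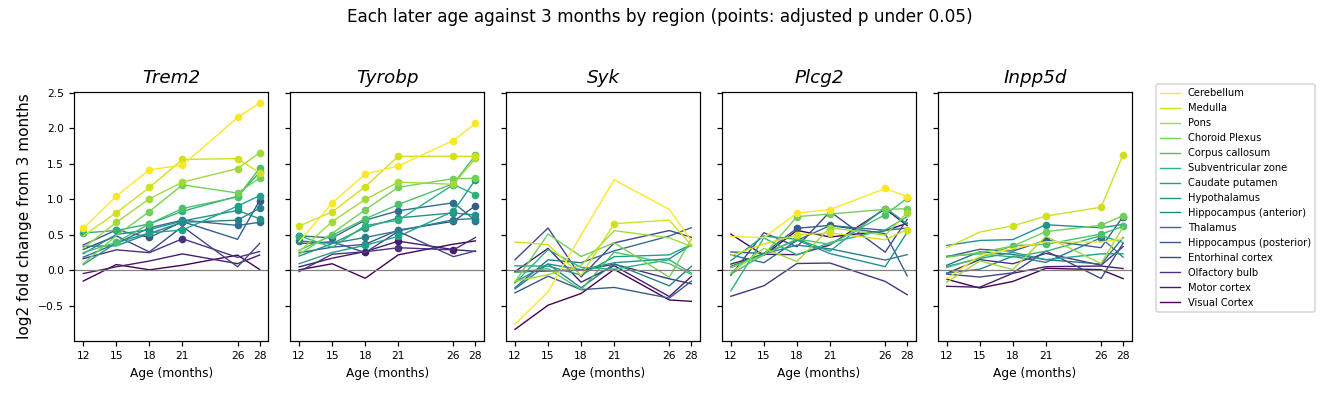
Difference of each later age from 3 months on the log2 scale (vertical axis) by age in months (horizontal axis) for the 5 genes, 1 line per region, with a point where the adjusted p was under 0.05. Tyrobp has points in 4 regions at 12 months and in 13 at 21 months, and Syk has 1 point, in medulla at 21 months.

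In cerebellum the difference of Trem2 from 3 months was 0.59 (SE 0.16) on the log2 scale at 12 months and 1.04 (SE 0.15) at 15. It was 1.41 (SE 0.15) at 18 months, 1.48 (SE 0.14) at 21, 2.15 (SE 0.17) at 26 and 2.35 (SE 0.17) at 28 months. In subventricular zone it was 0.52 (SE 0.11) at 12 months and 0.56 (SE 0.11) at 15, and 1.38 (SE 0.15) at 28 months. The cerebellar rise was thus spread over the whole span, and that of subventricular zone was present by 12 months and largest at 28.

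The slopes themselves were compared between regions in 1 fit of all libraries. This fit had no mouse term, so its p-values treat libraries of the same mouse as independent. The age by region test passed for 22.7% of all genes. It passed for Trem2 (adjusted p = 9.1e-44), Tyrobp (2.5e-40), Inpp5d (4.2e-07), Syk (0.0043) and Plcg2 (0.033). For single regions against the mean of the other 14, 1.02% of all gene and region pairs had a higher slope and 0.979% a lower one. Trem2 was higher in cerebellum (by 0.0567, SE 0.00605) and medulla (by 0.0354, SE 0.00508). It was also higher in pons (by 0.0298, SE 0.00516) and choroid plexus (by 0.0197, SE 0.00507). It was lower in visual cortex, motor cortex, olfactory bulb and entorhinal cortex, by between -0.0389 and -0.025.

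Tyrobp differed in the same 8 regions in the same directions, and was also higher in corpus callosum (0.0188, SE 0.00505). Inpp5d was higher in medulla (0.0317, SE 0.00578) and lower in visual cortex (-0.0203, SE 0.00551). Syk was higher in cerebellum (0.0524, SE 0.0131), which again includes the library of mouse 40. In males alone, without that mouse, this difference was not called, and the test over all regions gave adjusted p = 0.357. No region stood apart for Plcg2, whose test over all regions also failed in males alone (0.104) and without the libraries closest to another region (0.0781).

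Microglial marker genes moved with age beside these genes, so the values are set beside each other. The summed level of the 14 homeostatic microglia genes, of which Cst3 and Sparc are also made by other brain cells, went from 2533 to 3144 CPM in corpus callosum at 3 months to 3512 to 3903 CPM at 28 months. In cerebellum it ran from 1501 to 1970 CPM and from 1905 to 2002 CPM, and in medulla from 2793 to 3809 CPM and from 2875 to 2970 CPM, so these groups overlapped. Markers of border macrophages, 7 genes that include Mrc1 and Cd163, summed to between 1.24 and 17.7 CPM in cerebellum at 3 months and between 8.37 and 9.81 CPM at 28 months. The sum gives the most weight to the most abundant genes, so the calls of single genes are given too. Of the 14 genes, 10 rose in cerebellum (median slope 0.0261), 10 in medulla (0.0256) and 10 in corpus callosum (0.0165), against 1 in motor cortex and 1 in visual cortex. In motor cortex 1 gene of the list fell (median slope 0.000686), and in visual cortex 2 fell (-0.000868). Over the regions, 7 of the 14 rose in 10 or more, and 2 fell in at least 1. Relative to the mean log2 level of the list in the same library, Trem2 and Tyrobp had positive slopes in 15 of 15 regions, with medians of 0.026 and 0.0255 log2 per month. Plcg2 did so in 15, Inpp5d in 12 and Syk in 5, without regard to a test.

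With the mean level of that list as a covariate in each region, Tyrobp was called in 13 regions and Trem2 in 9. Trem2 was then not called in hypothalamus (adjusted p = 0.055), thalamus (0.13) and olfactory bulb (0.2). Plcg2 was called in motor cortex alone, Inpp5d in choroid plexus and medulla, and Syk nowhere. In cerebellum the slope of Trem2 with the covariate was 0.0725, against 0.0935 without it. It went further down in medulla, from 0.0748 to 0.0406, in choroid plexus, from 0.0599 to 0.0237, and in posterior hippocampus, from 0.0307 to 0.0122. The slope of Tyrobp in choroid plexus went from 0.0611 to 0.0262. Among the calls that were lost, some slopes stayed of similar size, as those of Syk in cerebellum (0.053, against 0.0566), Plcg2 in subventricular zone (0.0265, against 0.0294) and thalamus (0.0328, against 0.029) and Inpp5d in hypothalamus (0.0254, against 0.0286). Others became small, as that of Plcg2 in medulla (0.00149, against 0.0246). In medulla the slope of Inpp5d was 0.0618, against 0.0491 without it.

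Some granulocyte and red cell genes were also called as rising with age in some regions. In motor cortex, where Tyrobp and Plcg2 were called, 7 of 8 granulocyte genes tested rose (median slope 0.169). In hypothalamus, where Trem2, Tyrobp and Inpp5d were called, 6 of 8 rose (0.122) beside 3 of 5 blood genes. In visual cortex, where none of the 5 was called, 8 of 9 granulocyte and 5 of 5 blood genes rose, and in pons 1 of 7 and 4 of 5. In cerebellum and medulla, where all 10 granulocyte genes were tested, their median slope was 0.0142 and 0.000522. Among all tested genes, 8.0% rose in motor cortex, 3.88% in hypothalamus, 5.13% in visual cortex and 3.94% in pons. Most granulocyte genes were tested in part of the regions. The filter on sex and age groups can keep such genes through the groups where they are high. Their counts therefore do not support a rise. Lcn2, the 1 gene of that list tested in all 15 regions, rose in none (mean slope -0.0361). The part of granulocyte and red cell RNA in the slopes of the 5 genes was not tested.

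Within a library, the receptor and its adaptor kept a similar ratio at all ages, while the ratios of the kinase and the phosphatase to the receptor had negative slopes. These slopes of ratios are descriptions without a test. The log2 ratio of Tyrobp to Trem2 changed by between -0.00347 and 0.00787 per month, with a positive slope in 7 regions and a negative one in 8. In cerebellum it was 1.01 ± 0.48 (SD, n = 10) at 3 months and 0.87 ± 0.13 (SD, n = 3) at 28 months. The ratio of Inpp5d to Trem2 had a negative slope in 15 of 15 regions, with a median of -0.0176 per month. In cerebellum it went from -0.59 ± 0.74 to -2.21 ± 0.37, and in medulla, where Inpp5d rose most, from -1.01 ± 0.58 to -0.84 ± 0.31. The ratio of Syk to Trem2 had a negative slope in 15 of 15 regions (median -0.0334 per month) and that of Plcg2 in 12. Some of these slopes were smaller than their error, as for Syk in entorhinal cortex (-0.000955, SE 0.0133) and Inpp5d in motor cortex (-0.00235, SE 0.00461). The regions share their mice, so their directions are not independent. A prior count of 2 shrinks changes in low counts such as those of Syk, and its part was not tested.

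Between the sexes, compared at the ages both have (3 to 21 months), the levels were lower in males wherever they differed. Tyrobp was lower in males in corpus callosum, at 20.1 ± 4.75 CPM (SD, n = 26) against 25.5 ± 7.71 CPM in females (SD, n = 24). The difference was -0.35 on the log2 scale (SE 0.057, adjusted p = 0.00013), where 0.259% of all genes were lower in males. In medulla 13.3% of all genes were lower in males, and 3 of the 5 were among them. Tyrobp had 21.4 ± 7.96 against 29.5 ± 13.8 CPM (-0.43, SE 0.084), Inpp5d 3.48 ± 0.935 against 5.58 ± 2.24 CPM (-0.66, SE 0.12), and Trem2 10.3 ± 3.11 against 13.3 ± 6.85 CPM (-0.29, SE 0.088).

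In hypothalamus Inpp5d was lower in males (4.95 ± 1.54 against 6.53 ± 1.97 CPM, -0.38, SE 0.11, adjusted p = 0.029), with 1.93% of all genes. Over all regions 1.47% of pairs were lower and 1.24% higher in males. Tyrobp was lower in males in 15 of 15 regions, of which 2 were called, and Syk in 14, of which none was called. These regions share their mice, so their directions are not independent. In medulla at 21 months Trem2 ran from 16.5 to 29.7 CPM in 5 females and from 10.4 to 16.5 CPM in 6 males. The males of 26 months had 15.5 to 18.6 CPM and those of 28 months 12.8 to 16.2 CPM, below most of those females, so a curve through all mice there mixes age with sex.

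The change with age was not called different between the sexes for any of the 5 genes by edgeR, where 0.0727% of all gene and region pairs were. At an unadjusted p under 0.05 the age by sex term passed in 6 regions for Tyrobp, 3 for Trem2, 3 for Syk, 1 for Plcg2 and 1 for Inpp5d. The fitted slope was lower in males in 15 of 15 regions for Tyrobp and in 13 for Trem2. The regions come from the same mice, so their directions are not independent. Neither these directions nor the unadjusted counts have a share over all genes beside them, so they do not show a difference between the sexes. DESeq2 also called no pair, and without the filter on low counts edgeR called Syk in cerebellum, where the females include mouse 40.

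Across the libraries of a region, the receptor and adaptor varied together more than any other pair of the 5. The mean over the 15 regions of Pearson's r of log2 CPM was 0.69 for Trem2 and Tyrobp, with a range from 0.19 to 0.92. After age and sex were removed it was 0.45. Tyrobp with Plcg2 had 0.42, Trem2 with Plcg2 0.37 and Trem2 with Inpp5d 0.36. Pairs with Syk had at most 0.26, reached with Plcg2, which ranked 10 among genes by correlation with Syk. In counts this low no correlation of Syk, high or low, is a finding. Libraries of a region share their dissection, and the correlations are descriptions.

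The genes most like Trem2 among the 12920 genes tested in all regions were the cathepsin gene Ctss (0.74), the C1q subunit genes C1qa (0.73), C1qc (0.72) and C1qb (0.72), and Tyrobp (0.69). Those most like Tyrobp were Ctss (0.82), C1qa (0.81), C1qc (0.8), the Fc receptor adaptor gene Fcer1g (0.79) and C1qb (0.79). Plcg2 was most like the complement gene C4b (0.48), the integrin gene Itgb2 (0.48), Cyba (0.47), the class I gene H2-K1 (0.46) and Laptm5 (0.46). Inpp5d was most like AU020206 (0.42), Ly86 (0.41), C4b (0.41), Dock2 (0.41) and Csf1r (0.41). For Syk the highest were Rhoh (0.29), Dock8 (0.29), Gmfg (0.29), Arhgap45 (0.29) and Dock2 (0.28).

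Age took a large share of the variance of the receptor and its adaptor. Of the variance of log2 CPM over all libraries, age accounted for 28.7% in Trem2 and 32.3% in Tyrobp beside region. It accounted for 8.55% in Plcg2, 4.82% in Inpp5d and 2.43% in Syk, and for a median of 0.594% over 12920 genes. Region accounted for 33.3%, 29.1%, 44.5%, 53.6% and 25% in the same order, against a median of 70.3%.

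Around the receptor, genes of the pathway were taken from lists, and the members that moved most widely are named by role. Of 4 genes for ligands, Lgals3, which encodes the lectin galectin-3, rose in 11 of the 14 regions where it was tested (mean slope 0.0989) and Apoe, for the main apolipoprotein of the brain, in 11 of 15 (mean slope 0.013). Clu rose in 5 and fell in 1, and Apoa1 rose in 1 of 6. Of 6 genes for receptor shedding and the Ms4a family, none rose in 10 or more regions. Ms4a6d rose in 9 of 15 and Ms4a7 in 8 of 14.

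Of 16 other adaptors and receptors that couple to them, 4 had counts enough to be tested, and 1 of the 4 rose in 10 or more regions. This was Fcer1g, the adaptor of Fc receptors, which rose in 13 (mean slope 0.0373). Clec5a, a lectin receptor that also pairs with Tyrobp, rose in 9 and Siglech in 9. Of the Src family kinases, which phosphorylate the adaptor, none of 6 rose in 10 or more regions. Lyn rose in 6 while falling in 1. Fgr had counts enough to be tested in 4 regions alone and was called in these. The filter on sex and age groups can keep a low gene through the groups where it is high. The count of Fgr therefore does not support a rise, and the same limit holds for other genes tested in part of the regions. Fyn, the member that neurons and oligodendrocytes also express, fell in 5.

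Downstream, 3 of 32 activating genes rose in 10 or more regions and 5 fell in at least 1. The 3 that rose were Lat2, for a membrane scaffold (11 regions, mean slope 0.0423), Vav1, for an exchange factor (10, 0.0305), and Pik3ap1, for an adaptor of phosphoinositide 3-kinase (10, 0.0285). The median over the list of the mean slope was 0.00509. Among 18 inhibitory receptors and phosphatases, 5 rose in 10 or more regions. Fcgr2b, the inhibitory Fc receptor, rose in 14 (mean slope 0.054), the phosphatase gene Ptpn6 in 12 (0.0423), Cd33 in 12 (0.0292) and Lilrb4a in 11 (0.107). These 4 genes were thus called in at least 11 regions each, against 5 for Inpp5d.

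Of 14 genes known to depend on Trem2 in activated microglia, 13 were tested and 4 rose in 10 or more regions, as 1.49% of all genes did: Gpnmb in 13 (mean slope 0.0805), the cystatin gene Cst7 in 12 of 14 (0.182), the chemokine gene Ccl6 in 12 (0.0609) and Csf1 in 10 (0.0201). Ank, Cadm1 and Hif1a rose in 1 region each. Of 7 genes of early activation, Lyz2 and B2m rose in 13 (0.0836 and 0.0343) and Ctsd in 12 (0.0196). Among 10 myeloid transcription factors, Irf8 rose in 12 (0.0356) and Spi1, the gene of PU.1, in 11 (0.0316). The counts of these lists are descriptions.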

How the data were processed

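The authors deposited raw read counts in 1 table, with genes as rows and libraries as columns. Homogenised tissue was extracted with RNeasy, copied to cDNA by Smart-Seq2 and tagmented by Nextera XT, per the labels' protocols, and sequenced without strand, per the labels. The submitters' processing notes name Trim Galore 0.3.7, STAR 2.5.3a, DESeq2 and the GRCm38 build. The counting program, annotation and filters are not given in the sources used here. The deposited counts were whole numbers with unequal library totals. Groups came from the labels. In the fits of single regions and the tests within mouse, p-values measure the spread between mice. In the joint fits without a mouse term they measure the spread between libraries, as if libraries of the same mouse were independent.

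Each region was fitted alone with edgeR 4.0.16 in R 4.3.3: quasi-likelihood test, TMM factors, filterByExpr on sex and age groups, Benjamini-Hochberg adjustment over all genes tested in a region, threshold 0.05, 2-sided. Slopes are log2 per month beside sex. SE is the log2 change divided by the square root of F. Slopes of regions, and levels at 3 months, were compared in joint fits of all libraries without a mouse term. CPM is reads per 1000000 reads of the library total, and log2 CPM for correlations and ratios used a prior count of 2. Per-length levels used the principal transcripts, or alternatively all merged exons, of GENCODE on GRCm38. Libraries of different regions from the same mouse are paired by the labelled mouse number, and a fit with mouse as replicate block was the alternative. Other alternatives used limma 3.58.1, DESeq2 1.42.0, other factors, filters, covariates and subsets of mice. The scripts were tested on simulated data. Other tools were Python 3.11.15, numpy 2.4.6, pandas 2.3.3, scipy 1.17.1 and matplotlib 3.10.9.

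The 5 genes and the lists were chosen with earlier results of these data known. Named genes are the 5, up to 4 genes per pathway list called in the same direction in the most regions, and for each of the 5 the 5 genes with the highest mean correlation within regions. A gene that this rule names is not reported here. Reads carry no molecular identifiers, so limits from counts cover counting error only.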

Additional observations from a re-analysis of the deposited data

Results flagged for a closer look

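In the joint fit without a mouse term, the age by region test passed for all 5 genes, as it did for 22.7% of all genes. The adjusted p of this test was 9.1e-44 for Trem2, 2.5e-40 for Tyrobp, 4.2e-07 for Inpp5d, 0.0043 for Syk and 0.033 for Plcg2. With mouse as replicate block it still passed for all 5. For Syk and Plcg2 it did not pass in males alone or with limma-trend, so their difference between regions depends on the setting.

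Single libraries stood apart from the others of their region and age in 26 of 385 groups of 4 to 10 libraries, or 6.75%, where chance gives about 1 in 20 groups. For Trem2 these were cerebellum at 12 months (mouse 3, 10.9 CPM from 8 reads, against at most 7.09 CPM), entorhinal cortex and olfactory bulb at 12 months (mouse 7 in both, 11.4 and 12.2 CPM), and visual cortex at 26 months (mouse 11, 12.9 CPM). For Tyrobp they were anterior and posterior hippocampus at 18 months (mouse 51 in both, 29.1 and 28.9 CPM, against at most 21.4 and 20.9 CPM), pons at 3 months (mouse 25, 25.7 CPM) and subventricular zone at 15 months (mouse 54, 25.1 CPM).

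For Syk, high libraries were those of caudate putamen at 15 months (mouse 38, 4.99 CPM from 11 reads), choroid plexus at 12 months (mouse 10, 3.08 CPM), entorhinal cortex at 15 months (mouse 42, 4.49 CPM), hypothalamus at 12 months (mouse 12, 3.2 CPM) and olfactory bulb at 15 months (mouse 46, 5.91 CPM). In corpus callosum at 3 months mouse 17 was low, at 0.253 CPM from 1 read. For Plcg2, mouse 8 was high in choroid plexus at 26 months (6.76 CPM), mouse 50 in pons at 15 months (12.9 CPM) and mouse 17 in thalamus at 3 months (7.57 CPM from 4 reads). Plcg2 was low in posterior hippocampus (mouse 41, 1.66 CPM) and in subventricular zone (mouse 53, 1.06 CPM), both at 3 months.

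For Inpp5d, mouse 23 was low in cerebellum at 18 months (0.869 CPM from 1 read), mouse 17 in corpus callosum at 3 months (5.83 CPM) and mouse 2 in hypothalamus at 26 months (4.75 CPM). In thalamus at 3 months mouse 17 was at 0 CPM, with no read of 528123, which allows up to 5.68 CPM. High libraries of Inpp5d were those of hypothalamus at 18 months (mouse 47, 10.5 CPM), olfactory bulb at 12 months (mouse 13, 9.58 CPM) and visual cortex at 18 months (mouse 39, 11 CPM).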

How the results depend on the processing

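Mouse as replicate block treats the regions of a mouse as paired. With it the age by region test still passed for all 5 genes, with adjusted p = 0.0103 for Syk and 0.0258 for Plcg2. The numbers of regions that differed in slope or level stayed within 1.5 times those reported, while single calls were not compared. Regions rising with age numbered 1 for Syk in the analysis reported and 0 without the filter on low counts, with DESeq2, in males alone, in mice 16 to 56 alone (3, 15, 18 and 21 months) and with the microglia covariate, and 0 to 2 when single mice were left out. For Plcg2, against 10, there were 6 in males alone, 2 in females alone, 6 in mice 16 to 56 and 1 with the covariate. For Inpp5d, against 5, there were 3 in males, 2 in females and 2 with the covariate. In males alone, pairs above 3 months numbered 0 at 12 months, 2 at 15, 7 at 18 and 20 at 21, against 6, 11, 29 and 36. The age by sex term gave 1 pair without the filter, against 0. Without single mice of 3 or 28 months the counts were 5 to 7 at 12 months, 9 to 13 at 15, 20 to 28 at 18, 34 to 36 at 21, 29 to 31 at 26 and 22 to 33 at 28 months.

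Across regions, the age by region test for Syk gave adjusted p = 0.357 in males, 0.106 in mice 16 to 56 and 0.327 with limma-trend. For Plcg2 it gave 0.104, 0.274 and 0.153, and 0.0781 without the libraries closest to another region. Regions with a differing slope numbered 0 for Syk in those 3 settings, and 1, 0 and 1 for Inpp5d, against 2. Leaving out each 28-month mouse was not run with edgeR; with limma-trend, chosen after seeing the data, it gave adjusted p = 0.324, 0.444 and 0.316 for Syk without mouse 57, 58 and 59, and 0.24, 0.235 and 0.174 for Plcg2, 0 differing regions for Syk and 1 for Inpp5d. Without single 3-month mice, regions whose level differed numbered 5 to 9 for Trem2. The cause of these changes was not tested. The calls of Trem2 and Tyrobp stayed within 1.5 times their counts in every alternative run for the slope. Low counts limit Syk most.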
